A study of Homo sapiens with 6 samples.

Results

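Kinesins are motor proteins that use ATP to walk along microtubules or to take them apart. One set of family members builds the mitotic spindle, moves chromosomes and closes cytokinesis, and the genes of many of these motors are transcribed mainly as cells approach and pass through mitosis. Another set carries vesicles, organelles and mRNA through the cytoplasm of cycling and resting cells alike. The family was followed here by gene symbol in SAS, a human cell line grown from an oral squamous cell carcinoma, through probe sets whose single symbol was KIF with a number and at most one letter A to C, or KIFC1 to KIFC3. This gave 85 of 54675 probe sets and 41 of the 19775 genes with a symbol of their own. By known function, 13 were grouped as mitotic motors, 17 as cargo transport motors and 11 as others (a depolymerase with both roles, ciliary, signalling and less studied motors). KIF4B, a near-identical copy of KIF4A, has no probe set of its own name, so the KIF4A signal could include it.

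The 6 Affymetrix arrays held RNA from siCYLD cells with the ALK5 inhibitor (1 array), siCtrl cells with the inhibitor (1 array), siCYLD cells with DMSO (2 arrays) and siCtrl cells with DMSO (2 arrays). CYLD is a deubiquitinase that restrains NF-κB signalling, and ALK5 is the type I receptor of TGF-β. Every culture was transfected with a CYLD or a control siRNA, grown for 2 days and kept for 48 h in medium without serum together with DMSO or the inhibitor, whose name and dose the labels do not give. The labels give neither the number of CYLD siRNAs nor a rescue, so other targets of that siRNA cannot be told apart from CYLD loss. Values are MAS5 signals, a linear brightness per probe set, and the number of arrays limits their precision. Whether duplicates came from separate cultures is not stated, so the p-values rest on a spread between arrays that may be only technical.

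The array titled siCYLD replicate 1 carries a source name for control siRNA, while siCtrl replicate 2 has one for CYLD siRNA. Groups follow the titles, and results are also given without both arrays. CYLD itself had signals of 278 and 230 in siCYLD cells with DMSO, against 411 and 500 in siCtrl cells with DMSO (log2 difference -0.80 ± 0.18 standard error, adjusted p = 0.0065). Squamous epithelial markers were present, with EPCAM from 20221 to 21944 and CDH1 from 11742 to 15156 over the arrays, while the basal keratin KRT14 stayed between 62.3 and 148. Others of the list varied more, KRT5 from 900 to 12525 and DSG3 from 488 to 1261. The summed signal of 7 fibroblast markers ran from 716 to 914, most of it COL1A1 (284 to 399) and PDGFRB (228 to 307). COL1A2 and DCN also passed the expression filter, and COL3A1, PDGFRA and LUM did not. The sum of 5 neuronal markers ran from 419 to 671 and that of 3 leukocyte markers from 124 to 176.

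Mitotic kinesin promoters often carry a cell cycle genes homology region, with the core letters TTTGAA, together with CCAAT boxes, a pair of elements known from promoters of genes expressed in G2 and mitosis. They are shown because the mitotic motors below moved together. The windows run 5′ to 3′ on the gene's strand from 100 bases before the RefSeq start site through the first 12 bases of the transcript (build GRCh38.p14), and capitals mark TTTGAA or CCAAT on either strand (TTCAAA and ATTGG on the strand printed). The first 4 are the motors whose response to the CYLD siRNA passed a test of difference with the inhibitor. KIF2C is a mitotic motor whose printed window holds neither motif, and KIF3C and KIF1C are transport motors that rose.
KIF11, chr10:92593030-92593141, plus strand: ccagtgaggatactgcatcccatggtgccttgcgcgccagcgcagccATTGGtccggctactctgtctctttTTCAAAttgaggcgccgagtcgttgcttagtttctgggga
KIF14, chr1:200620740-200620851, minus strand: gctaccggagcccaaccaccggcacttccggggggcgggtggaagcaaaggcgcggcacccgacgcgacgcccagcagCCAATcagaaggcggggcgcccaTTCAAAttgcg
KIF18B, chr17:44947762-44947873, minus strand: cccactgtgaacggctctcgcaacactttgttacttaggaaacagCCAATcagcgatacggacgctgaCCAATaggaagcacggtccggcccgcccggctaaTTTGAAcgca
KIFC1, chr6:33391723-33391834, plus strand: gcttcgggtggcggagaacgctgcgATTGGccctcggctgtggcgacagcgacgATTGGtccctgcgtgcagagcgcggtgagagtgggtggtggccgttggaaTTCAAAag
KIF2C, chr1:44739737-44739848, plus strand: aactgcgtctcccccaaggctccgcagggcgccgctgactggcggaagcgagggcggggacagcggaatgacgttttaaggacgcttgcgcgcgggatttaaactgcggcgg
KIF3C, chr2:25982486-25982597, minus strand: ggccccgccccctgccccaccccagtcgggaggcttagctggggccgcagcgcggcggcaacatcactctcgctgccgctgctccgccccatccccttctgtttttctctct
KIF1C, chr17:4997850-4997961, plus strand: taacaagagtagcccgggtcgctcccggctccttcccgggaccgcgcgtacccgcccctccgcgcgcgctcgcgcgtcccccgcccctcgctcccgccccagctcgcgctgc

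Over full RefSeq windows of 300 bases (250 before the start site), TTTGAA on either strand was found for 9 of the 12 mitotic kinesins that were tested below, for 1 of 10 tested transport kinesins with a window and for 0 of 6 other tested kinesins with a window. The share among all 10447 tested genes with a window was 13.7%. CCAAT was found for 10 of 12 mitotic motors and 4 of 10 transport motors, against 42.8% of all tested genes with a window. Both motifs stood in the windows of 8 mitotic motors (KIF11, KIF14, KIF18A, KIF18B, KIF20B, KIF23, KIF4A and KIFC1) and of 1 transport motor, KIF5B, against 5.62% of all. In KIF5B the TTTGAA match began 140 bases before the start. In the mitotic motors its place varied, from 55 bases before the start (KIF23) through 28 before it (KIF11) to 30 after it (KIF20B). The motifs overlapped in 0 kinesin windows. These are letter matches, not mapped binding sites.

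With the CYLD siRNA the mitotic kinesins fell and a few transport kinesins rose. Of 13 mitotic motors on the array, 12 passed the expression filter (highest group mean above a signal of 79.3), and 12 of 12 were lower in siCYLD cells with DMSO than in siCtrl cells with DMSO (adjusted p under 0.05, limma, adjusted over 12935 genes), at a median log2 difference of -1.53. Across all 12935 genes tested, 11.8% were called lower, and the median difference was -0.04. Both siCYLD arrays with DMSO lay below both siCtrl arrays with DMSO for 12 of the 12, as they did for 34.1% of all genes. Of 14 transport motors tested, 1 was lower and 4 were higher, where 9.49% of all genes were called higher, and their median was 0.16. Among 7 other kinesins tested, 1 was higher (KIF26B, which passed the filter only through siCYLD groups) and 0 lower. For the 7 motors with both siCYLD signals above the filter, the mean linear signal in siCYLD cells with DMSO was 25.5% (KIF11) to 59.8% (KIF20B) of that in siCtrl cells with DMSO. In the other 5 (KIFC1, KIF20A, KIF15, KIF18A and KIF4A) at least 1 siCYLD signal was below it, where a percentage is less certain. The mean of these 5 in siCYLD cells with DMSO was below the filter, from 25.8 (KIFC1) to 72.8 (KIF4A). They passed only through other groups, so the filter itself partly fixed their direction within the 12 of 12. In RNA from whole cultures, fewer cells in mitosis and less RNA of these genes per cell cannot be told apart.

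**Figure D1:**
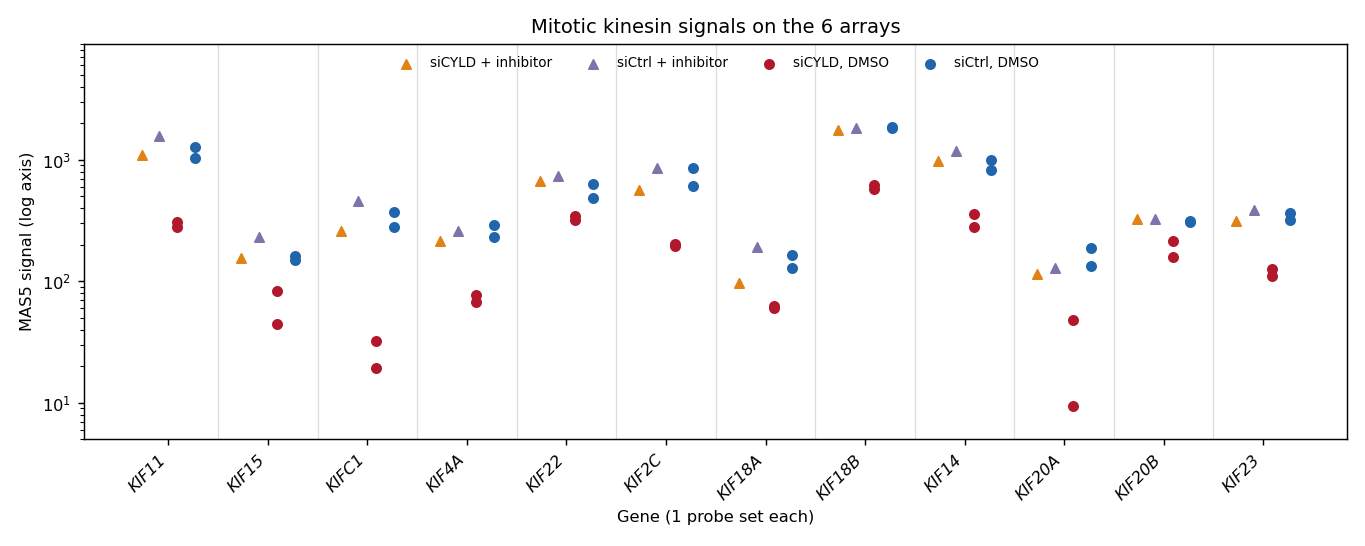
MAS5 signals (log axis) of the 12 tested mitotic kinesins, 1 probe set per gene and 1 point per array, as triangles for arrays with the ALK5 inhibitor and circles for arrays with DMSO. In all 12 genes both siCYLD arrays with DMSO lie below both siCtrl arrays with DMSO, and the siCYLD array with the inhibitor lies above both siCYLD arrays with DMSO.

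KIF11, KIF15 and KIFC1 shape the bipolar spindle. KIF11 slides antiparallel microtubules apart to separate the poles, KIF15 can keep the poles apart when KIF11 is inhibited, and KIFC1 is a minus-end motor that bundles and focuses spindle poles and clusters extra centrosomes. KIF11 had signals of 281 and 306 in siCYLD cells with DMSO, against 1036 and 1269 in siCtrl cells with DMSO, and fell by 1.91 ± 0.14 on the log2 scale (standard error, adjusted p = 8.4e-07). For KIFC1, siCYLD cells read 19.3 and 32.4, against 283 and 370 in siCtrl cells (-3.04 ± 0.25, adjusted p = 2.8e-06). Both siCYLD values of KIFC1 lie near the offset of 16.06 that was added before taking logs, which understates such a fold change. KIF15 read 83.9 and 44.2 in siCYLD cells, against 151 and 161 in siCtrl cells (-1.15 ± 0.29, adjusted p = 0.014). Groups did not overlap in any of these genes. The KIF15 call was lost without siCtrl replicate 2 (-1.10, adjusted p = 0.051) or siCYLD replicate 2 (-0.78, adjusted p = 0.083).

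KIF4A and KIF22 are chromokinesins, which bind chromosome arms and push them towards the spindle equator, and KIF4A also sets the length of central spindle microtubules. KIF4A had signals of 68.3 and 77.4 in siCYLD cells with DMSO, against 234 and 291 in siCtrl cells with DMSO (-1.64 ± 0.23, adjusted p = 0.00019). KIF22 read 320 and 344 in siCYLD cells, against 487 and 635 in siCtrl cells (-0.72 ± 0.16, adjusted p = 0.0056). Its difference was under that of KIF4A, and its call was lost without siCtrl replicate 2 (-0.53, adjusted p = 0.055).

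KIF2C, KIF18A and KIF18B shorten or dampen microtubule ends. KIF2C depolymerises microtubules at centromeres and helps correct wrong attachments, KIF18A limits the oscillation of chromosomes at metaphase, and KIF18B acts on astral microtubule ends. KIF18B had signals of 624 and 577 in siCYLD cells with DMSO, against 1866 and 1838 in siCtrl cells with DMSO (-1.60 ± 0.11, adjusted p = 7.6e-07). KIF2C read 203 and 197 in siCYLD cells, against 609 and 864 in siCtrl cells (-1.78 ± 0.17, adjusted p = 8.9e-06). Duplicates of KIF18B were close in both groups, while the siCtrl duplicates of KIF2C differed more. KIF18A read 60.6 and 63.2 in siCYLD cells, against 165 and 129 in siCtrl cells (-1.05 ± 0.28, adjusted p = 0.018), and its call was lost without siCtrl replicate 1 (-0.89, adjusted p = 0.093). The remaining mitotic depolymerase, KIF2B, stayed below the filter with signals of 3.35 to 27.3 and was not tested.

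KIF14, KIF20A, KIF20B and KIF23 act in the midzone and in cytokinesis. KIF23 forms centralspindlin with RACGAP1, KIF20A brings the chromosomal passenger complex to the midzone, KIF14 partners with citron kinase, and KIF20B acts late, towards abscission. KIF14 had signals of 282 and 360 in siCYLD cells with DMSO, against 825 and 1004 in siCtrl cells with DMSO (-1.47 ± 0.15, adjusted p = 1.8e-05). KIF23 read 111 and 125 in siCYLD cells, against 363 and 318 in siCtrl cells (-1.41 ± 0.19, adjusted p = 0.00014). In both genes the groups lay well apart. The siCYLD duplicates of KIF20A differed most. KIF20A read 47.9 and 9.4 in siCYLD cells, against 135 and 190 in siCtrl cells (-2.13 ± 0.42, adjusted p = 0.0029). KIF20B read 158 and 216 in siCYLD cells, against 315 and 310 in siCtrl cells (-0.71 ± 0.19, adjusted p = 0.019), and its call was lost without siCYLD replicate 1 (-0.51, adjusted p = 0.12), siCtrl replicate 1 (-0.70, adjusted p = 0.055) or siCtrl replicate 2 (-0.72, adjusted p = 0.056). It had the smallest fall of the tested mitotic motors.

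Further probe sets of the same genes were also lower where they passed the filter. Of 19 probe sets for mitotic motors, 16 passed, the 12 used above and 4 further ones (-1.57 to -0.55). All 16 had differences below 0, and 14 were called lower in a fit over 24537 probe sets, in which 9.06% were called lower. The 2 without a call were the second probe sets of KIF22 (-1.13, adjusted p = 0.10) and KIF23 (-0.55, adjusted p = 0.34). Below the filter, 1 KIF20B probe set was higher (1.03), at 30.6 and 25.0 in siCYLD cells with DMSO, against 5.29 and 5.43 in siCtrl cells with DMSO. Another of KIF20B was at -0.10, and that of KIF2B at -0.51. Once _x_at and _s_at probe sets were left out, 8 mitotic motors could be tested and 7 were called lower, KIF23 being the exception. Here and below, KIF23 without _s_at probe sets rests on a dim probe set, with signals of 43.9 to 109 around the filter of 79.3.

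Leaving out both arrays with conflicting labels left 1 array of each group. Between siCYLD replicate 2 and siCtrl replicate 1 the 12 mitotic motors differed by -2.62 to -0.48, with a median of -1.45, where the median of all tested genes was -0.05. An additive model over those 4 arrays, which averages the DMSO and inhibitor pairs, called 5 mitotic motors lower (KIF11, KIF14, KIF18B, KIF2C and KIFC1), where 4.21% of all genes were, and 3 transport motors higher (KIF1C, KIF3C and KIFC2), where 3.93% were.

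Several transport motors rose with the CYLD siRNA. KIF3C, which pairs with KIF3A in a kinesin-2 motor, had signals of 1419 and 1480 in siCYLD cells with DMSO, against 612 and 620 in siCtrl cells with DMSO (1.21 ± 0.12, adjusted p = 1.1e-05). KIF1C, a fast carrier of vesicles and integrins, read 2002 and 1974 in siCYLD cells, against 1025 and 1020 in siCtrl cells (0.95 ± 0.11, adjusted p = 4.4e-05). KIFC2, a minus-end motor described mainly in mouse neurons, read 2415 and 2679 in siCYLD cells, against 1470 and 1248 in siCtrl cells (0.90 ± 0.12, adjusted p = 0.00013). The duplicates of these 3 genes lay far closer together than the groups did. KIFC3, a minus-end motor linked to apical transport and adherens junctions, read 465 and 489 in siCYLD cells, against 274 and 232 in siCtrl cells (0.88 ± 0.16, adjusted p = 0.0018). In the fit over probe sets, where 7.7% were called higher, a second probe set was also higher for KIF1C (0.98), KIF3C (0.64) and KIFC2 (0.85). The second one of KIFC3 was not called (0.20, adjusted p = 0.74), at dim signals of 61.1 to 90.3 around the filter. The mean of the KIFC3 probe sets was not called either (0.54, adjusted p = 0.074).

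**Figure D2:**
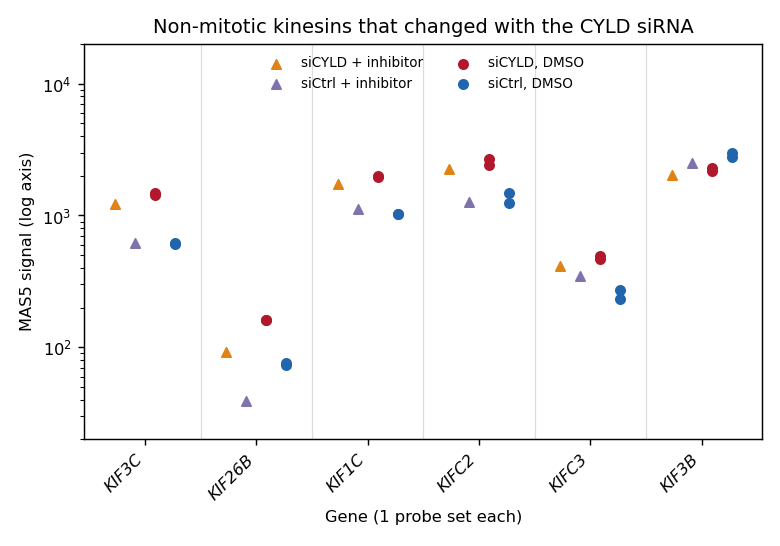
MAS5 signals (log axis) of the 6 tested kinesins outside the mitotic class that changed with the CYLD siRNA, with 1 point per array, triangles for the ALK5 inhibitor and circles for DMSO. KIF3C reads 1212 in siCYLD cells with the inhibitor, against 620 in siCtrl cells with the inhibitor, whereas KIF3B is the 1 gene here that is lower in siCYLD cells.

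KIF3B, the usual partner of KIF3A in intraflagellar transport, was the 1 transport motor called lower. It read 2299 and 2177 in siCYLD cells with DMSO, against 2767 and 2956 in siCtrl cells with DMSO (-0.35 ± 0.10, adjusted p = 0.027). Its call was lost without siCYLD replicate 1 (-0.39, adjusted p = 0.053), siCYLD replicate 2 (-0.31, adjusted p = 0.15) or siCtrl replicate 2 (-0.30, adjusted p = 0.10). The mean of the KIF3B probe sets was not called either (-0.31, adjusted p = 0.055). In the fit over probe sets, its second probe set was not called (-0.27, adjusted p = 0.16). KIF26B, a kinesin-like protein that acts in Wnt5a and ROR signalling, read 162 and 162 in siCYLD cells, against 72.9 and 76.6 in siCtrl cells (0.97 ± 0.30, adjusted p = 0.037). Its siCtrl signals were below the filter of 79.3. KIF26B thus passed only through siCYLD groups, and the filter itself partly fixed the direction of its call. That call was lost without siCYLD replicate 1 (adjusted p = 0.13), siCYLD replicate 2 (adjusted p = 0.14), siCtrl replicate 1 (adjusted p = 0.083) or siCtrl replicate 2 (adjusted p = 0.079), at differences of 0.94 to 1.001. It was also lost on the mean of the KIF26B probe sets (0.57, adjusted p = 0.21), the second being at 0.16 (adjusted p = 0.79).

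The brightest transport motors, KIF5B and KIF3A, had small differences. KIF5B, the conventional kinesin heavy chain of most tissues, read 5657 and 5292 in siCYLD cells with DMSO, against 5865 and 6599 in siCtrl cells with DMSO (-0.18, adjusted p = 0.20), although another of its probe sets was called lower (-0.44, adjusted p = 0.010). KIF3A had a difference of -0.10, KIF1B of 0.23 and KIF13A of 0.11, none of them called. KIF2A, a depolymerase of spindle poles and of neurons that shares its fold with KIF2C, read 2553 and 2732 in siCYLD cells, against 2616 and 2621 in siCtrl cells (0.01, adjusted p = 0.95). KIF21B had the widest siCtrl spread among the transport motors named here, with 237 and 183 in siCYLD cells, against 61.3 and 191 in siCtrl cells (0.83, adjusted p = 0.12). Below the filter and untested were KIF1A, KIF5A and KIF17 among transport motors, and KIF12, KIF19, KIF24 and KIF27 among others. With KIF2B, these 8 genes had 13 probe sets, all at or below a signal of 96.8 on every array.

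Other genes of the spindle moved with the mitotic kinesins. Among 19 tested mitotic partners of kinesins, 16 were lower and 0 higher, with a median of -1.34. That list holds CENPE (-1.35), itself a mitotic kinesin, which the symbol rule leaves out of the family here. The 20 general cycling cell genes had 19 lower and 0 higher, with a median of -1.40. Over all tested genes 11.8% were lower and 9.49% higher. ANLN, a cytokinetic ring scaffold, read 228 and 150 in siCYLD cells with DMSO, against 981 and 982 in siCtrl cells with DMSO (-2.31 ± 0.17). HMMR, a spindle assembly factor, fell by 2.28, and CDK1, the mitotic kinase, by 1.91. From the cycling list, CCNB2 fell by 2.25, TTK fell by 2.10 and TOP2A fell by 2.06. The fall of the mitotic motors stood beside a similar one of cycling genes that are not motors, and the part of the number of cycling cells in it was not tested.

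**Figure D3:**
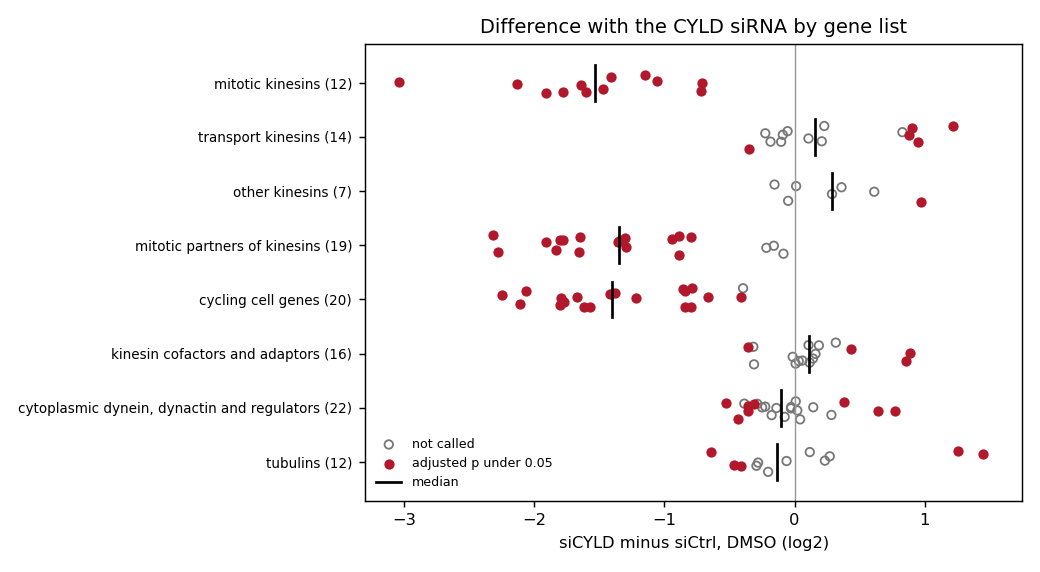
Log2 difference between siCYLD and siCtrl cells with DMSO for each tested gene (x axis), by list (rows, number tested in brackets), with filled points for adjusted p under 0.05 and a bar at the list median. Mitotic kinesins, their mitotic partners and cycling genes lie left of 0 with medians of -1.53, -1.34 and -1.40, while the other 5 lists have medians between -0.13 and 0.29.

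Lists of motor systems outside mitosis had medians near 0 and members that moved both ways. Of 16 tested kinesin cofactors and adaptors, 3 were higher and 1 lower (median 0.11), where 9.49% of all tested genes were higher and 11.8% lower. FEZ1, an adaptor of kinesin-1, read 1086 and 1121 in siCYLD cells with DMSO, against 636 and 546 in siCtrl cells with DMSO (0.89 ± 0.12). KLC3, a kinesin light chain, rose by 0.86, and KIFAP3, the accessory subunit of the KIF3 motors, by 0.43. Of 22 genes of cytoplasmic dynein, dynactin and their regulators, 3 were higher and 5 lower (median -0.11), with the adaptors BICD1 at 0.77 and HOOK3 at 0.64 and the light intermediate chain DYNC1LI1 at -0.52. Of 12 tubulins, 2 were higher and 3 lower (median -0.13). The counts of the 3 lists are small, and several are close to the shares over all genes. TUBA4A rose by 1.45 ± 0.12 and TUBB2A by 1.26 ± 0.14, while TUBD1, a centriolar tubulin, fell by 0.64.

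Of 3 measures of RNA or labelling quality, 2 separated the arrays by siRNA. The ratio of the 3′ to the 5′ ACTB control probe set was 2.38 in siCYLD cells with the inhibitor and 3.67 in siCtrl cells with the inhibitor. With DMSO it was 2.26 and 2.48 in siCYLD cells, against 3.41 and 3.21 in siCtrl cells. The mean log2 signal of the poly-A spike controls was 9.28 to 9.46 on the 3 siCYLD arrays and 9.0005 to 9.09 on the 3 siCtrl arrays. The GAPDH ratio overlapped, at 1.80 to 1.97 on siCYLD arrays and 1.79 to 2.14 on siCtrl arrays. The part of these measures in the differences between siRNAs was not tested.

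The inhibitor raised mitotic kinesins in siCYLD cells. Of the 12 tested, 11 were higher with the inhibitor (1 array) than with DMSO (2 arrays), at a median of 1.41, where 12.2% of all genes were called higher, and KIF18A was the 1 without a call. Among those called, KIFC1, KIF20A, KIF15 and KIF4A had DMSO means in siCYLD cells below the filter. They passed it only through other groups, the siCtrl groups and the inhibitor array, which limits what their direction shows here. In siCtrl cells 0 of the 12 were called (1 array against 2), at a median of 0.29, where 5.02% of all genes were called higher. At unadjusted p under 0.05, 1 of the 12 (KIF11) passed in siCtrl cells. The spread of the single inhibitor arrays was taken from the duplicates. The comparison in siCYLD cells uses the same DMSO arrays as the siRNA comparison above, so a low value on those arrays enters both. The 20 cycling cell genes moved with the inhibitor too, with 20 called higher in siCYLD cells and 7 in siCtrl cells, at medians of 1.57 and 0.58. With the inhibitor 4 endothelial markers summed to a signal of 845 (siCYLD) and 967 (siCtrl), against 250 to 365 on the 4 DMSO arrays. Most of that was CDH5, at 462 and 587 with the inhibitor, against 5.83 to 63.0 with DMSO, and KRT5 of the squamous list read 5595 (siCYLD) and 12525 (siCtrl) with the inhibitor, against 900 to 1245 with DMSO, while PECAM1 stayed between 188 and 216 and KDR between 1.95 and 25.5. The part of these genes in the kinesin values was not tested.

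KIFC1 read 261 with the inhibitor in siCYLD cells, against 19.3 and 32.4 with DMSO, and rose by 2.74 ± 0.31 (adjusted p = 5.1e-05). In siCtrl cells it read 461 with the inhibitor, against 283 and 370 with DMSO (0.49 ± 0.31, adjusted p = 0.36). KIF11 read 1098 with the inhibitor in siCYLD cells, against 281 and 306 with DMSO (1.85 ± 0.17, adjusted p = 8.7e-06). The inhibitor value of each gene in siCYLD cells lay above both DMSO values. In siCtrl cells KIF11 read 1567 with the inhibitor, against 1036 and 1269 with DMSO (0.45 ± 0.17, adjusted p = 0.12).

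KIF18B read 1773 with the inhibitor in siCYLD cells, against 624 and 577 with DMSO (1.54 ± 0.14, adjusted p = 8.4e-06). In siCtrl cells it read 1836 with the inhibitor, against 1866 and 1838 with DMSO (-0.01 ± 0.14). KIF14 read 980 with the inhibitor in siCYLD cells, against 282 and 360 with DMSO (1.57 ± 0.19, adjusted p = 7.8e-05). The siCtrl arrays of KIF18B were almost level, and those of KIF14 were higher with the inhibitor, at 1173 against 825 and 1004 with DMSO (0.36 ± 0.19, adjusted p = 0.26).

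The other called mitotic motors rose in siCYLD cells by 0.76 (KIF20B) to 1.698 (KIF20A). KIF2C rose by 1.43, KIF4A by 1.39, KIF23 by 1.31, KIF15 by 1.14 and KIF22 by 0.98. KIF20A read 115 with the inhibitor, against 47.9 and 9.4 with DMSO, and KIF4A 216, against 68.3 and 77.4. Without siCYLD replicate 2 the calls of KIF20A (1.03, adjusted p = 0.081) and KIF15 (0.78, adjusted p = 0.14) were lost, and without siCYLD replicate 1 that of KIF20B (0.55, adjusted p = 0.14). The mean of the KIF23 probe sets was not called (0.89, adjusted p = 0.053), nor was KIF23 without _s_at probe sets (0.47, adjusted p = 0.52), and KIF20A was not called in the fit on such means (adjusted p = 0.054). KIF18A, the exception, read 96.9 with the inhibitor, against 60.6 and 63.2 with DMSO (0.53 ± 0.35, adjusted p = 0.30). On siCYLD replicate 2 alone, without both arrays with conflicting labels, the 12 motors differed by 0.51 to 2.52 between inhibitor and DMSO, and on siCtrl replicate 1 alone by -0.06 to 0.68.

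**Figure D4:**
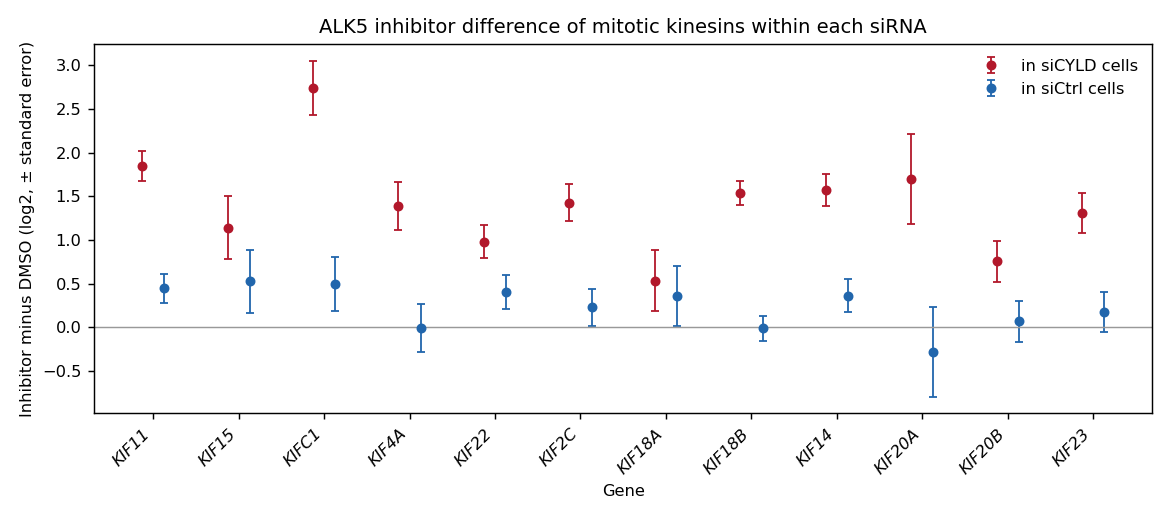
Log2 difference between the inhibitor (1 array) and DMSO (2 arrays) for the 12 tested mitotic kinesins, in siCYLD cells on the left of each pair and in siCtrl cells on the right, with standard errors from the limma fit. Values in siCYLD cells run from 0.53 to 2.74, and those in siCtrl cells from -0.28 to 0.53.

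The difference between these responses was tested as an interaction of siRNA and inhibitor. It was called for 4 of the 12 mitotic motors, KIFC1 (2.25 ± 0.44, adjusted p = 0.020), KIF18B (1.55 ± 0.20, adjusted p = 0.0018), KIF11 (1.40 ± 0.24, adjusted p = 0.0090) and KIF14 (1.21 ± 0.27, adjusted p = 0.038), where 0.982% of all genes were called higher. The other 8 had values of 0.18 (KIF18A) to 1.98 (KIF20A) that did not pass, KIF2C being next at 1.20 ± 0.30 (adjusted p = 0.069). The interaction was also called higher for 9 of 19 mitotic partners (median 1.001) and 6 of 20 cycling cell genes (median 0.95), beside a median of 1.21 for the mitotic motors. Of 14 transport and 7 other kinesins, 0 were called in either direction, where 1.67% of all genes were (KIF13A, KIF16B and KIFC3, 3 in all, at unadjusted p under 0.05). Without siCtrl replicate 2 the KIF14 call was lost (1.07, adjusted p = 0.053), and without siCYLD replicate 2 there were 7 kinesins called. Without the intensity trend in the moderation, 0 of the 4 were called (adjusted p of 0.15 to 0.30).

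Under the inhibitor the 2 siRNAs were compared on 1 array each, with values only. The 12 mitotic motors read 50.7% (KIF18A) to 98.5% (KIF20B) of the siCtrl signal in siCYLD cells, with log2 differences of -0.88 to -0.02 and a median of -0.27. All 12 were below 0, where 50.8% of all genes were, and 2 (KIF18A and KIFC1) were at least 1.5-fold lower on the log2 scale with the offset, where 9.67% of all genes were. On linear signals KIF2C, at 66.4%, made it 3, where 10.9% of all genes were. KIF18B read 1773 in siCYLD cells, against 1836 in siCtrl cells, and KIF11 read 1098, against 1567. These arrays are separate from the DMSO arrays, on which the same 12 motors had a median of -1.53.

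**Figure D5:**
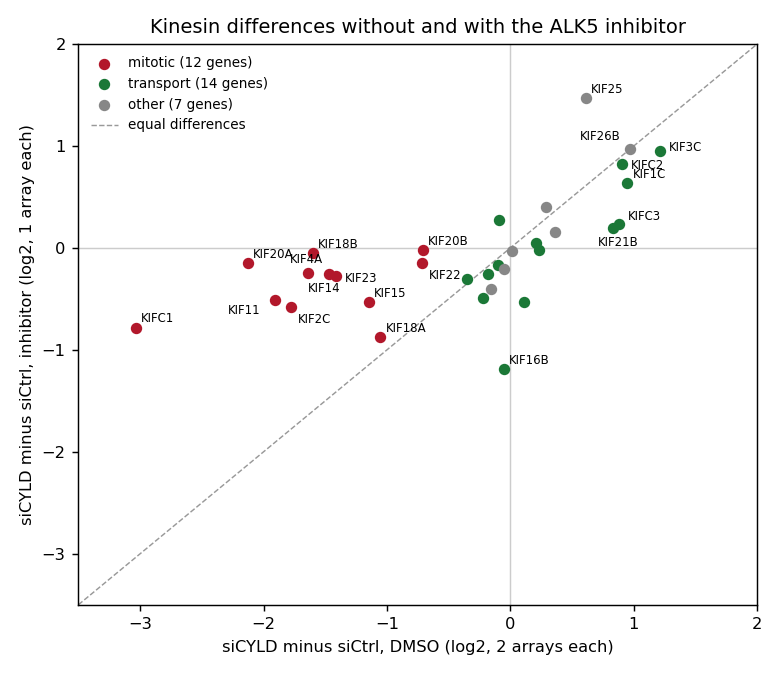
Each point is 1 of 33 tested kinesins, with the siCYLD minus siCtrl log2 difference with DMSO (2 arrays each) on the x axis and with the inhibitor (1 array each) on the y axis, coloured by class. Mitotic motors lie above the dashed line of equal differences, KIF18A being closest to it, while KIF3C, KIFC2 and KIF26B lie close to the line on the positive side.

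Of the 4 risen transport motors, 3 also read at least 1.5-fold higher under the inhibitor, on 1 array per siRNA. KIF3C read 1212 in siCYLD cells with the inhibitor, against 620 in siCtrl cells with the inhibitor (0.95). KIFC2 read 2253, against 1263 (0.83), and KIF1C 1737, against 1112 (0.64). Over all genes 10.8% were that much higher, and KIFC3 was not, at 414 in siCYLD cells, against 348 in siCtrl cells (0.24). None of the 4 was called for the inhibitor in siCYLD cells, with differences of -0.25 (KIF3C) to -0.17 (KIFC2). Their interactions were -0.64 ± 0.28 (KIFC3), -0.31 ± 0.19 (KIF1C), -0.26 ± 0.21 (KIF3C) and -0.07 ± 0.21 (KIFC2), none called, which does not show that the responses were equal.

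A few other transport motors differed with the inhibitor. KIF13A, a carrier of recycling endosomes, read 981 with the inhibitor in siCYLD cells, against 1489 and 1601 with DMSO (-0.65 ± 0.14, adjusted p = 0.0055). KIF16B, which binds early endosomes, read 80.9 with the inhibitor in siCYLD cells, against 160 and 179 with DMSO (-0.93 ± 0.28, adjusted p = 0.030). KIF1B, a carrier of mitochondria and vesicle precursors, read 1390 with the inhibitor, against 1781 and 2160 with DMSO (-0.49 ± 0.15, adjusted p = 0.037). All 3 inhibitor values lay below both DMSO values, and 10.2% of all genes were called lower in this comparison. Other kept probe sets of KIF1B were lower too in siCYLD cells, at -0.65 and -0.59, and the mean of its probe sets was at -0.58. Without siCYLD replicate 2 the calls of KIF16B (-0.86, adjusted p = 0.089) and KIF1B (-0.35, adjusted p = 0.18) were lost, and the mean of probe sets was not called for KIF13A (-0.54, adjusted p = 0.088) or KIF16B (-0.61, adjusted p = 0.18), whose second probe set was at -0.28 (adjusted p = 0.68). In siCtrl cells the 1 kinesin called was KIF13B, a carrier that binds the polarity protein DLG1, which read 554 with the inhibitor, against 957 and 936 with DMSO (-0.76 ± 0.18, adjusted p = 0.018), where 4.34% of all genes were called lower.

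Averaged over both siRNAs in an additive model (2 inhibitor arrays against 4 with DMSO), 6 mitotic motors were higher with the inhibitor (KIFC1, KIF11, KIF14, KIF2C, KIF23 and KIF22), where 11.2% of all genes were. KIF9, an axonemal motor, was also higher (0.63, adjusted p = 0.028), and KIF13B was lower (-0.58, adjusted p = 0.017), where 8.82% of all genes were lower. The KIF13B call was lost without the siCtrl inhibitor array (-0.39, adjusted p = 0.12), siCtrl replicate 1 (-0.54, adjusted p = 0.058), siCYLD replicate 2 (-0.52, adjusted p = 0.051) or the intensity trend (adjusted p = 0.072). Without the siCYLD inhibitor array 0 of these 6 mitotic motors were called (0.18 for KIF23 to 0.49 for KIFC1) and 1 kinesin in all, and without the siCtrl inhibitor array 14 kinesins were. Without siCtrl replicate 1 there were 2 called and without siCYLD replicate 2 there were 4, KIF2C and KIF23 losing their calls in both cases (adjusted p of 0.058 to 0.099). On the mean of probe sets KIF23 (0.42, adjusted p = 0.27), KIF22 (0.74, adjusted p = 0.096) and KIF2C (0.76, adjusted p = 0.056) were not called, and KIF23 without _s_at probe sets was at 0.087 (adjusted p = 0.89). The KIF9 call was lost without either inhibitor array (0.74, adjusted p = 0.086, without the siCYLD array, and 0.53, adjusted p = 0.15, without the siCtrl array), siCtrl replicate 1 (0.55, adjusted p = 0.070) or siCYLD replicate 2 (0.61, adjusted p = 0.067), and in siCtrl cells, where its probe set read 300 with the inhibitor, against 156 and 195 with DMSO, it was not called (adjusted p = 0.078). The KIF9 probe set is of the _x_at class, which can share probes with other transcripts. Further kept KIF9 probe sets, also of that class, were higher with the inhibitor, at 1.47 and 0.50 in siCtrl cells. In siCYLD cells the same ones were at 0.57 and 1.27.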

How the data were processed

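RNA of SAS cells was measured on 6 Affymetrix arrays after 2 µg of total RNA was made into biotinylated cRNA, per the labels' protocols. The deposited intensities hold a linear signal per probe set and array, and come from MAS5, per the submitters' processing notes (its version not given in the sources used here). Their mean after trimming 2% at each end was 500.1 on every array, and medians ran from 73.4 to 84.8.

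Before testing, 16.06 (the 20th percentile over all arrays) was added to each signal and log2 taken. Of 54675 probe sets, 41091 had 1 symbol in the platform annotation, 1801 several and 11721 none, and 62 were controls. Probe sets whose highest group mean exceeded the median of all values (a signal of 79.3) were kept (24537), and the brightest kept probe set stood for each gene (12935 genes, 33 of them kinesins, from 59 kept kinesin probe sets). MAS5 scaling to 1 common level gives only relative differences between arrays, and the fold changes of dim genes are understated by the offset.

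limma 3.58.1 (R 4.3.3) was used with the intensity trend and Benjamini-Hochberg adjustment over all genes, two-sided, at 0.05. The 4 group means left 2 residual degrees of freedom, to which moderation added 10.9. The additive model had 3 and 7.98. The siCYLD against siCtrl comparison of the fit was tested on simulated data with a shift added on all siCYLD arrays. The interaction and the inhibitor comparisons were not simulated. Signals are given for mitotic motors that passed the filter and for other kinesins called in any comparison. Up to 3 called genes were named from each list of partners, and CENPE besides. Members, classes and lists were chosen with earlier results of these data known. Promoter windows are from RefSeq (GRCh38.p14). All 13 mitotic, 12 of 17 transport and 8 of 11 other kinesins had one. Figures used matplotlib 3.10.9 in Python 3.11.15.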

Additional observations from a re-analysis of the deposited data

Results flagged for a closer look

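The response to the inhibitor differed between siCYLD and siCtrl cells for 4 mitotic kinesins, by the interaction test of the limma fit. The interaction was 2.25 for KIFC1, 1.55 for KIF18B, 1.40 for KIF11 and 1.21 for KIF14 on the log2 scale, each a larger rise with the inhibitor in siCYLD cells than in siCtrl cells. Each rests on 1 inhibitor array per siRNA. Without both arrays with conflicting labels the interaction values of all 12 tested mitotic motors were above 0, from 0.31 to 2.42, with a median of 1.06 beside 0.04 for all tested genes. The same interaction was called for 9 of 19 mitotic partners and 6 of 20 cycling cell genes, where 0.982% of all genes were called higher. Without the intensity trend none of the 4 kinesins was called, and without the filter on low values only KIF18B was.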

How the results depend on the processing

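An offset of 1 or 64, quantile normalization and the robust moderation left all 6 counts of called kinesins within 1.5 times of those reported (12 mitotic and 5 transport motors for the CYLD siRNA, 4 kinesins for the interaction, 1 and 14 for the inhibitor in siCtrl and siCYLD cells, 8 across both). Without the filter on low values 9 of 13 mitotic motors were called for the siRNA. KIF15 (adjusted p = 0.071), KIF18A (adjusted p = 0.065) and KIF20B (adjusted p = 0.082) lost their calls there, as did KIF26B (adjusted p = 0.089). That setting also gave 1 for the interaction, 0 for the inhibitor in siCtrl cells, 9 in siCYLD cells and 4 across both. Without the intensity trend these 4 counts were 0, 0, 9 and 2, and 8 mitotic motors were called for the siRNA. The mean of probe sets called 3 transport motors. Without _x_at and _s_at probe sets, where 27 kinesins could be tested, 7 mitotic motors were called for the siRNA, 9 kinesins for the inhibitor in siCYLD cells and 4 across both. Leaving out 1 array at a time gave 9 to 11 mitotic and 4 to 5 transport motors for the siRNA, 3 to 7 for the interaction, 1 to 3 and 10 to 14 for the inhibitor in siCtrl and siCYLD cells, and 1 to 14 across both. Without both arrays with conflicting labels 5 mitotic and 3 transport motors were called for the siRNA. That model was not run for the interaction or within each siRNA. Its 1 residual degree of freedom and the greater weight of the inhibitor pair are part of its construction. Grouping by source name sets replicate 2 against replicate 1 and called 0 mitotic and 0 transport motors. A difference between titles cancels in it. It turned the sign of KIF11 (0.20), KIF14 (0.31), KIF20B (0.19), KIF22 (0.24), KIF2C (0.23), KIF3B (0.0084), KIF4A (0.22), KIFC1 (0.41), KIF1C (-0.014), KIFC2 (-0.043) and KIFC3 (-0.078). Replicate numbers appear in the titles, but deviations of same-numbered arrays correlated at only 0.0447 over genes, so they name arrays and are not taken to pair them. With the replicate number as a block 12 mitotic and 6 transport motors were called. Shares over all genes are not given for counts under altered settings, apart from the model without both arrays with conflicting labels. Those counts therefore cannot be set against the calls over all genes. For calls lost here without another value shown, the cause was not tested. Array data carry no read depth, and signals near the offset of 16.06, such as KIFC1 and KIF20A in siCYLD cells with DMSO, limit how large a fall can be read.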

Other observations

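The values below were picked after they were seen. KIF24 and KIF27 were not tested, and the siRNAs under the inhibitor were compared by values only. KIF24, a ciliary depolymerase below the expression filter, read 50.3 in siCYLD cells with the inhibitor and 35.7 in siCtrl cells with the inhibitor, and with DMSO 21.9 and 25.4 in siCYLD cells, against 50.7 and 54.5 in siCtrl cells. KIF27, also below the filter, read 14.3 in siCYLD cells with the inhibitor, against 49.0 in siCtrl cells with the inhibitor. With DMSO it read 24.6 and 5.36 in siCYLD cells, against 44.7 and 42.7 in siCtrl cells. Under the inhibitor KIF16B read 80.9 in siCYLD cells, against 205 in siCtrl cells, while with DMSO it read 160 and 179 in siCYLD cells, against 187 and 166 in siCtrl cells. KIF25 read 107 in siCYLD cells with the inhibitor, against 28.4 in siCtrl cells with the inhibitor, from a probe set of the _x_at class. Among kinesin adaptors, FEZ1 read 3802 in siCYLD cells with the inhibitor, against 1090 in siCtrl cells with the inhibitor. In the limma fit FEZ1 rose with the inhibitor in siCYLD cells by 1.77 (adjusted p = 5.0e-06), where 12.2% of all genes were called higher. The interaction was not called for KIF16B (-1.14, adjusted p = 0.20), KIF25 (0.86, adjusted p = 0.65) or FEZ1 (0.90, adjusted p = 0.055).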
